A study of Mus musculus with 6 samples.

Results

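The genes described here are 43 lysosomal hydrolases, their helper proteins and lysosomal membrane proteins of the mouse, chosen by name and not by their values. All 43 were listed in the count tables, which held 55341 gene symbols, and all 43 were among the 16729 genes with enough counts to be tested. They fall into 10 cysteine cathepsins and legumain, 3 other proteases, 14 glycosidases and sulfatases that take glycans apart, 5 lipid hydrolases, 4 activators and soluble cofactors, and 7 membrane proteins.

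RNA was sequenced from 3 cultures given the vehicle DMSO and 3 cultures given GSK-126, an inhibitor of the histone H3K27 methyltransferase EZH2. The cultures were cerebellar granule neurons (CGNs) grown from granule neuron precursors of CD1-IGS pups at P6-P8, isolated on a Percoll gradient from pooled litters, and all of them had received cytosine arabinoside against the division of non-neuronal cells. Per the labels, both treatments were given at DIV3 (day in vitro 3), and the study's methods place the harvest at DIV5, with the dose of GSK-126 at DIV3 not given in the sources used here. The labels name cerebellum as the tissue, while the titles and methods describe CGN cultures. No allele was modified in either group. The comparison asks how blocking EZH2 in neurons that no longer divide changes their RNA.

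The lysosome is the acidic organelle in which cells break down proteins, glycans, glycosaminoglycans and lipids that arrive by endocytosis, phagocytosis and autophagy. Its hydrolases are made in the endoplasmic reticulum, tagged with mannose 6-phosphate, and carried to the lysosome by mannose 6-phosphate receptors, and several of them need a small activator protein to reach their substrate. Many of the genes carry E-box letters known as the CLEAR element near their start, which the transcription factors TFEB and TFE3 bind, and loss of single members causes lysosomal storage diseases that strike neurons. In the brain, microglia and other phagocytes are known to hold much lysosomal enzyme, but neurons and glia make it too.

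Promoter letters are shown first. The genes were chosen by name and not by these letters, but lysosomal genes are known to carry the CLEAR element. A higher share among them is thus not an independent finding. RefSeq promoters on GRCm38.p6, from 250 bases before to 50 bases after a start, were matched for 38 of the 43 genes. Ctsb, Ctsh, Galns, Asah1 and Npc1 had no entry. The letters CACGTG, which read the same on both strands, stood in the promoters of 14 of the 38 genes (36.8%), against 8.09% of all genes and 7.15% of all 32851 promoters in the table. The longer TCACGTG, searched on both strands and always containing CACGTG, was found in 12 genes (31.6%, against 4.29% of all genes), and TCACGTGA, which contains both, in 5 genes (13.2%, against 1.12% of all genes). Below are the stretches of 5 genes with the letters, and of Npc2 and Neu1, which were among the strongest risers and have none in this window. Capitals mark CACGTG.
Lamp1, chr8:13159086-13159155, plus strand, 75 to 6 bases before the start: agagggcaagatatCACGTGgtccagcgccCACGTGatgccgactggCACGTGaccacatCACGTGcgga
Mcoln1, chr8:3500399-3500456, plus strand, 120 to 63 bases before the start: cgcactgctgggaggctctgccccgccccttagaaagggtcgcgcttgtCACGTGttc
Ctsd, chr7:142388039-142388077, minus strand, 250 to 212 bases before the start: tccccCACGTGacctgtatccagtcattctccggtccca
Lgmn, chr12:102439108-102439167, minus strand, 75 to 16 bases before the start: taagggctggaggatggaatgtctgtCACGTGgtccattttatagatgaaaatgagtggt
Gaa, chr11:119267798-119267857, plus strand, 165 to 106 bases before the start: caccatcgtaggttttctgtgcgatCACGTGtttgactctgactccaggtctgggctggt
Npc2, chr12:84773163-84773222, minus strand, 110 to 51 bases before the start: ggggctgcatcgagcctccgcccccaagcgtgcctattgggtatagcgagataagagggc
Neu1, chr17:34931178-34931237, plus strand, 75 to 16 bases before the start: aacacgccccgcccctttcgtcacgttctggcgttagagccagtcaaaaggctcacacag

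None of these stretches overlaps an exon of GENCODE M21, and each lies outside its gene's annotated span except that of Lgmn, for which the annotation holds a longer transcript. Lamp1, the most abundant lysosomal membrane glycoprotein, carried CACGTG 4 times. Mcoln1 and Ctsd each carried it once more, 45 and 98 bases before the start, outside the stretches shown. A match is a description of the letters and not evidence that a factor binds there.

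Levels are given as CPM, the count of a gene relative to all counts on genes of its library and scaled with edgeR's TMM factors, and the values of a gene are always listed for DMSO replicates 1, 2 and 3 and then for GSK-126 replicates 1, 2 and 3. Between 7407189 and 13092763 counts fell on genes per library. Total counts of the lysosomal genes over the 6 libraries ranged from 777 for Idua to 134372 for Ctsb. Libraries with the same replicate number deviated together and were treated as pairs, and replicate 2 stood apart in both groups. A shared origin of such pairs is not stated in the sources used here. Of the 43 genes, 35 (81.4%) were lowest in replicate 2 of both groups, where 24.2% of all genes tested were. The granule neuron markers Zic1 and Neurod1 were present in every library, at 1085 to 1887 and 366 to 963 CPM, beside markers of glia and fibroblasts described further on.

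Compared within pairs of libraries, 20 of the 43 lysosomal genes were higher with GSK-126 and 0 passed as lower. Ctsl, Npc2, Neu1, Naglu, Ctsz and Gla led, at 1.37-fold to 1.44-fold, and the called genes came from all 6 roles. In the test without the replicate number as a block, which treats the 6 libraries as independent, 0 of the 43 genes passed at an adjusted p under 0.05 (quasi-likelihood test in edgeR, Benjamini-Hochberg adjustment over all genes), as did 0% of all genes tested. DESeq2 without the block also called 0 of the 43, where it called 20 higher and 1 lower of all 16729 genes tested. In edgeR's test 1 of the 43, Neu1, had an unadjusted p under 0.05, as did 665 of all 16729 genes. With the replicate number as a block, which compares libraries within a pair, 20 of the 43 (46.5%) were called higher, where the share of all genes tested called higher was 3.35%. With the block, edgeR and DESeq2 each called 0 of the 43 lower, where edgeR called 5.09% of all genes lower, and 1 of the 43, Ids, was lower at an unadjusted p under 0.05. DESeq2 with the block called 18 of the 43 higher, against 2.87% of the genes it tested, and 17 of the 18 were also called by edgeR, the other being Lamp1. The test without the block was planned as the main test, and the test with the block as its alternative. In what follows, a gene is said to have risen or fallen only where it passed edgeR's test with the block. The text gives that test's log2 fold change and its standard error (SE), and none of these genes passed without the block.

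The size of the difference was small. Called genes had log2 fold changes between 0.24 (Lamp2) and 0.52 (Ctsl), that is 1.18-fold to 1.44-fold, with a median of 0.39. Over all 43 genes the median log2 fold change was 0.26 without and 0.25 with the block, beside -0.0071 and -0.0056 over all genes tested. Of the 43, 35 had a log2 fold change above 0, as did 48.8% of all genes tested. Within pairs 1, 2 and 3 the median ratio was 0.29, 0.20 and 0.21 on the log2 scale (SD 0.047, n = 3), with 36, 36 and 37 of the genes above 0. In all 3 pairs, 32 of the 43 genes were higher with GSK-126 and 2 were lower, where 19.5% and 22.7% of all genes tested were.

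The spread between cultures was wide beside this difference. The libraries of the groups were fully apart, with every GSK-126 library above every DMSO library, for 2 of the 43 genes, Ctsh and Neu1, against 4.72% of all genes tested, and 0 of the 43 were apart in the other direction, also against 4.72%. Standard errors of the 43 log2 fold changes ran from 0.112 to 0.464 (median 0.243) without the block and from 0.0648 to 0.176 (median 0.081) with it. Leaving out 1 library breaks a pair, and the median over the genes was then 0.097 without GSK-126 replicate 1, 0.11 without DMSO replicate 2, 0.40 without replicate 1 of DMSO, and 0.43 once GSK-126 replicate 2 was left out. With a whole pair left out of the block fit, the median stayed between 0.23 and 0.28, and 13, 16 and 15 genes were called higher without pairs 1, 2 and 3. Over all genes, 417 of 16868, 337 of 16839 and 558 of 16898 were called higher in these fits, and 671, 496 and 719 lower. Of the 20 genes, 10 were called in each of these fits, namely Ctsb, Ctsl, Ctsz, Lgmn, Ctsd, Neu1, Naglu, Hexa, Npc2 and Cd63. The other 10 lost the call without at least 1 pair.

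**Figure D1:**
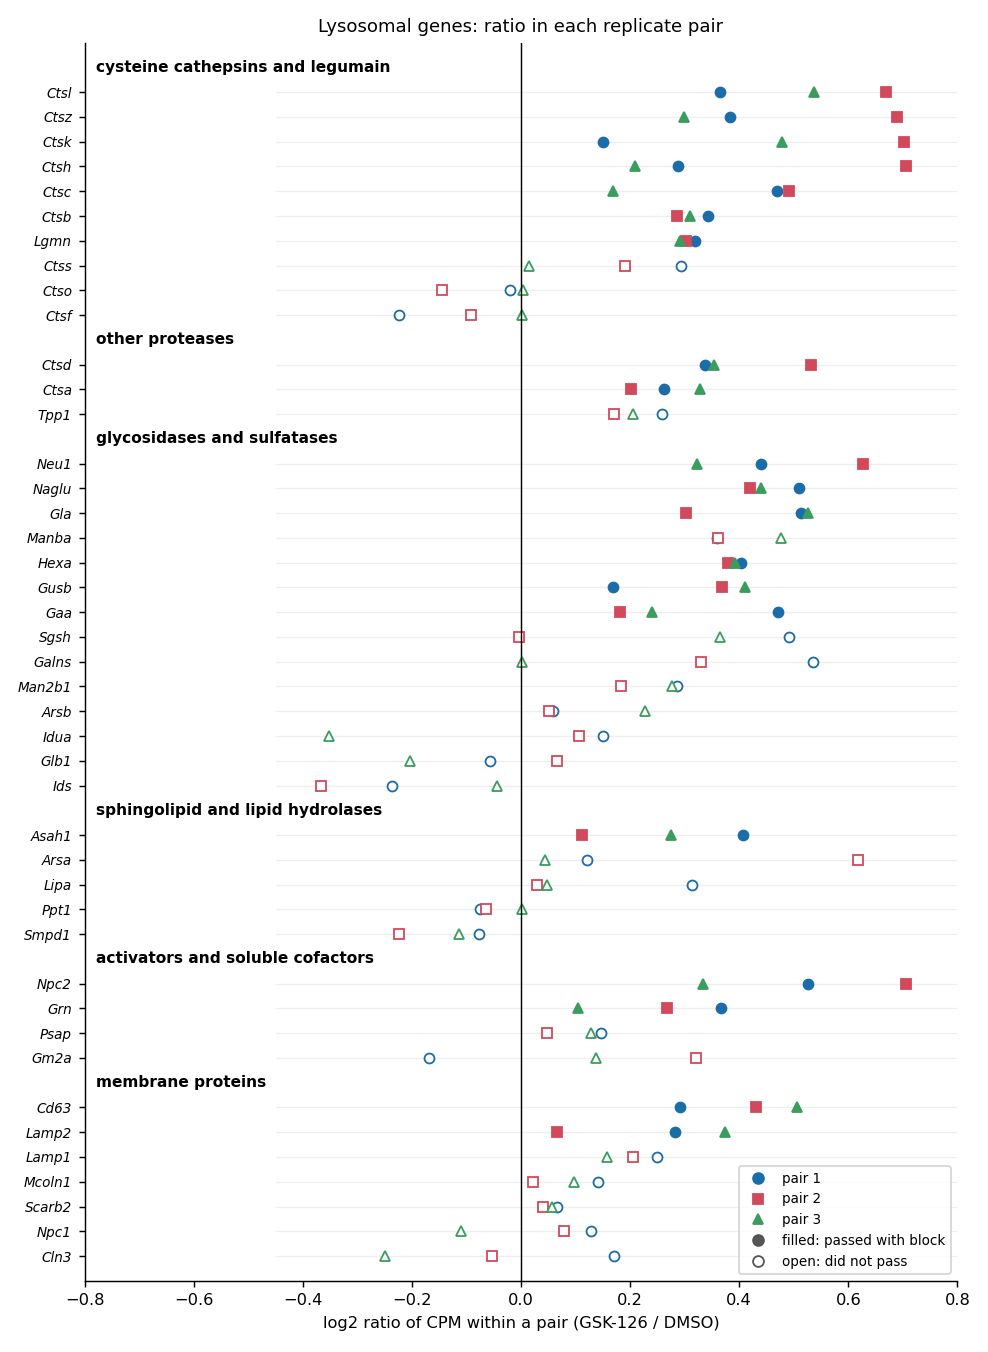
Log2 ratio of CPM, GSK-126 over DMSO, within each replicate pair for the 43 lysosomal genes, grouped by role and ordered by the log2 fold change with the block. Filled symbols are the 20 genes called higher with the block, all of which lie above 0 in the 3 pairs, and open symbols are the 23 genes that did not pass.

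**Figure D2:**
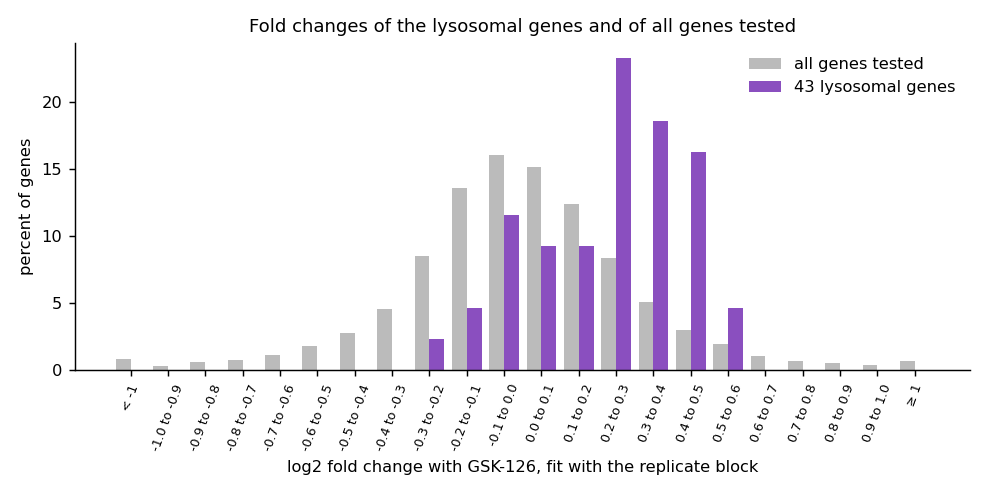
Percent of the 43 lysosomal genes and of the 16729 genes tested in bins of log2 fold change with the block, with open-ended bins beyond -1 and 1. Between 0.2 and 0.6 lay 27 of the lysosomal genes (62.8%) and 18.3% of all genes.

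Cysteine cathepsins are papain-like proteases that degrade most proteins delivered to the lysosome, and legumain, which cuts after asparagine, also processes them. Of these 10 genes, 7 rose and 0 were lower at an unadjusted p under 0.05. Cathepsin L (Ctsl, ENSMUSG00000021477.9, chr13:64359337-64370890), an endopeptidase, was at 821, 445 and 896 CPM with DMSO and 1057, 707 and 1299 CPM with GSK-126. Every treated library was above the control of its own number, but GSK-126 replicate 2 was below DMSO replicates 1 and 3. Its log2 fold change was the highest of the 43, at 0.52 (SE 0.072, adjusted p = 7.4e-05), and 0.50 (SE 0.31) without the block. Of the exon bases of Ctsl, 26.8% are shared with Gm47123 on the opposite strand, and the strand setting of the counting is not given in the sources used here, so reads of the 2 genes cannot be told apart there.

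Cathepsin Z (Ctsz, ENSMUSG00000016256.10, chr2:174427493-174439039), a carboxypeptidase, had 237, 123 and 236 CPM with DMSO and 310, 197 and 290 CPM with GSK-126. As for Ctsl, both replicate 2 libraries were the lowest of their group, and the ratio was largest in that pair. The rise of Ctsz was 0.45 on the log2 scale (SE 0.080, adjusted p = 0.00095). Cathepsin B (Ctsb, ENSMUSG00000021939.8, chr14:63122462-63145923), both an endopeptidase and a dipeptidase and the gene with most counts here, was at 2165, 1537 and 2190 CPM and then 2744, 1874 and 2713 CPM. Its ratios were close to each other in the 3 pairs, at 0.34, 0.29 and 0.31, and it rose by 0.31 on the log2 scale (SE 0.065, adjusted p = 0.00376). Exons of Ctsb share 774 bp, 12.8% of their length, with Fdft1 on the opposite strand, the squalene synthase of sterol synthesis. Fdft1 was at 112, 92.5 and 89.7 CPM with DMSO and 205, 238 and 183 CPM with GSK-126. The mean of Ctsb was 479 CPM higher with GSK-126 and that of Fdft1 111 CPM higher, and reads from the shared bases cannot be told apart.

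Legumain (Lgmn, ENSMUSG00000021190.14, chr12:102394084-102439813) had 381, 231 and 337 CPM with DMSO and 476, 285 and 413 CPM with GSK-126. It was the most even riser of the family, with ratios of 0.32, 0.30 and 0.29 in the 3 pairs (log2 fold change 0.30, SE 0.069, adjusted p = 0.00717). Levels of cathepsin C (Ctsc), the dipeptidyl peptidase that activates serine proteases of immune cells, were 103, 53.1 and 88.4 CPM and then 143, 74.7 and 99.4 CPM. The ratio of Ctsc was smallest in pair 3 (0.17), it rose by 0.38 on the log2 scale (SE 0.088, adjusted p = 0.00928), and it lost the call without pair 1 or pair 2 (adjusted p = 0.0934 and 0.0509).

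Cathepsin H (Ctsh), an aminopeptidase, was at 40.5, 25.4 and 40.7 CPM with DMSO and 49.4, 41.4 and 47.0 CPM with GSK-126. The groups of Ctsh did not overlap, it rose by 0.39 on the log2 scale (SE 0.12, adjusted p = 0.0416), and it lost the call without pair 2 (adjusted p = 0.282), the pair with its largest ratio. Cathepsin K (Ctsk), known as the collagenase of osteoclasts, was at 52.1, 15.8 and 23.1 CPM and then 57.8, 25.6 and 32.2 CPM. Replicate 1 of both groups was far above the others, it rose by 0.42 on the log2 scale (SE 0.13, adjusted p = 0.0445), the call was lost without pair 2 or pair 3 (adjusted p = 0.243 and 0.0948), and without GSK-126 replicate 1 in the fit with no block the sign turned (-0.052). DESeq2 with the block called neither Ctsh nor Ctsk (adjusted p = 0.109 and 0.118).

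The remaining cathepsins did not pass. Cathepsin S (Ctss), a protease of antigen-presenting cells, had a log2 fold change of 0.17 (95% interval -0.011 to 0.34), and values for cathepsins F and O (Ctsf and Ctso) were -0.11 (-0.30 to 0.085) and -0.051 (-0.28 to 0.18). Signs of Ctss and Ctso turned when single libraries were left out.

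The other proteases are cathepsin D, an aspartic endopeptidase, cathepsin A, a serine carboxypeptidase that also protects neuraminidase and beta-galactosidase, and tripeptidyl peptidase. Of the 3, 2 rose. Cathepsin D (Ctsd, ENSMUSG00000007891.16, chr7:142375911-142388038) was at 1087, 637 and 1023 CPM with DMSO and 1374, 921 and 1307 CPM with GSK-126. Its groups overlapped through replicate 2, and it rose by 0.41 on the log2 scale (SE 0.069, adjusted p = 0.00061). Exons of Ctsd share 34.4% of their length with Gm49369 on the same strand, where reads of the 2 genes cannot be told apart. Cathepsin A (Ctsa) was at 380, 244 and 321 CPM and then 455, 281 and 403 CPM. It rose by 0.26 on the log2 scale (SE 0.070, adjusted p = 0.021), a call lost without pair 1 or pair 3 (adjusted p = 0.0782 and 0.146). Exons of Ctsa share 10.5% of their length with Pltp and 6.87% with Neurl2, both on the opposite strand. Tripeptidyl peptidase (Tpp1) was higher in the 3 pairs at a log2 fold change of 0.21 (SE 0.072) and did not pass (adjusted p = 0.0781).

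Glycosidases and sulfatases remove sugars and sulfates from glycoproteins, glycolipids and glycosaminoglycans, each acting on the end that the enzyme before it exposes. Of the 14, 6 rose (Neu1, Naglu, Gla, Hexa, Gusb and Gaa), and 1, Ids, was lower at an unadjusted p under 0.05. Neuraminidase (Neu1, ENSMUSG00000007038.5, chr17:34931253-34935953), which removes sialic acid, was at 60.0, 58.8 and 58.8 CPM with DMSO and 81.3, 90.8 and 73.5 CPM with GSK-126. Unlike most of the genes, Neu1 was not low in replicate 2: its 3 control libraries were nearly equal and all below the treated ones. It rose by 0.46 on the log2 scale (SE 0.092, adjusted p = 0.00265) and 0.47 (SE 0.12) without the block. Naglu, an enzyme of heparan sulfate breakdown, had 62.3, 38.3 and 50.4 CPM and then 88.7, 51.3 and 68.4 CPM. The 3 pairs of Naglu gave ratios from 0.42 to 0.51 (log2 fold change 0.46, SE 0.093, adjusted p = 0.00316).

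Hexa, the alpha subunit of beta-hexosaminidase, was at 248, 130 and 191 CPM with DMSO and 329, 169 and 251 CPM with GSK-126. The libraries of Hexa spread widely, yet the ratios were 0.40, 0.38 and 0.39 in the 3 pairs, with a log2 fold change of 0.39 (SE 0.071, adjusted p = 0.00119). Exons of Hexa share 255 bp with Tmem202 on the opposite strand, which was at 21.5 to 38.4 CPM with DMSO and 22.1 to 56.2 CPM with GSK-126. Alpha-galactosidase A (Gla), a glycolipid enzyme, had 36.1, 26.5 and 40.1 CPM and then 51.5, 32.6 and 57.7 CPM. It rose by 0.45 on the log2 scale (SE 0.11, adjusted p = 0.0117), and it kept the call without pair 2 only.

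Acid alpha-glucosidase (Gaa), which digests glycogen, was at 162, 109 and 172 CPM with DMSO and 225, 123 and 203 CPM with GSK-126. Beta-glucuronidase (Gusb) had 125, 72.5 and 114 CPM and then 140, 93.7 and 151 CPM. Both overlapped between the groups, with log2 fold changes of 0.30 (SE 0.079, adjusted p = 0.0201) for Gaa and 0.31 (SE 0.081, adjusted p = 0.0178) for Gusb. Gaa lost the call without pair 1, and Gusb without pair 2 or pair 3. Iduronate sulfatase (Ids) acts at the start of heparan and dermatan sulfate breakdown and was second to Hexa in level per kilobase of exon in this class. It was at 215, 332 and 262 CPM with DMSO and 182, 257 and 254 CPM with GSK-126. Ids was lower in the 3 pairs and highest, not lowest, in replicate 2, with a log2 fold change of -0.22 (95% interval -0.38 to -0.058) that did not pass (adjusted p = 0.0899) except without pair 3 (-0.30, adjusted p = 0.0429). The other 7 of the class did not pass, from 0.40 (SE 0.12, adjusted p = 0.054) for the beta-mannosidase Manba to -0.063 (SE 0.12) for the beta-galactosidase Glb1, whose sign turned without pair 3. Neu1, Ctsa and Glb1 encode 3 enzymes known to form a complex, and of these Neu1 and Ctsa rose.

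**Figure D3:**
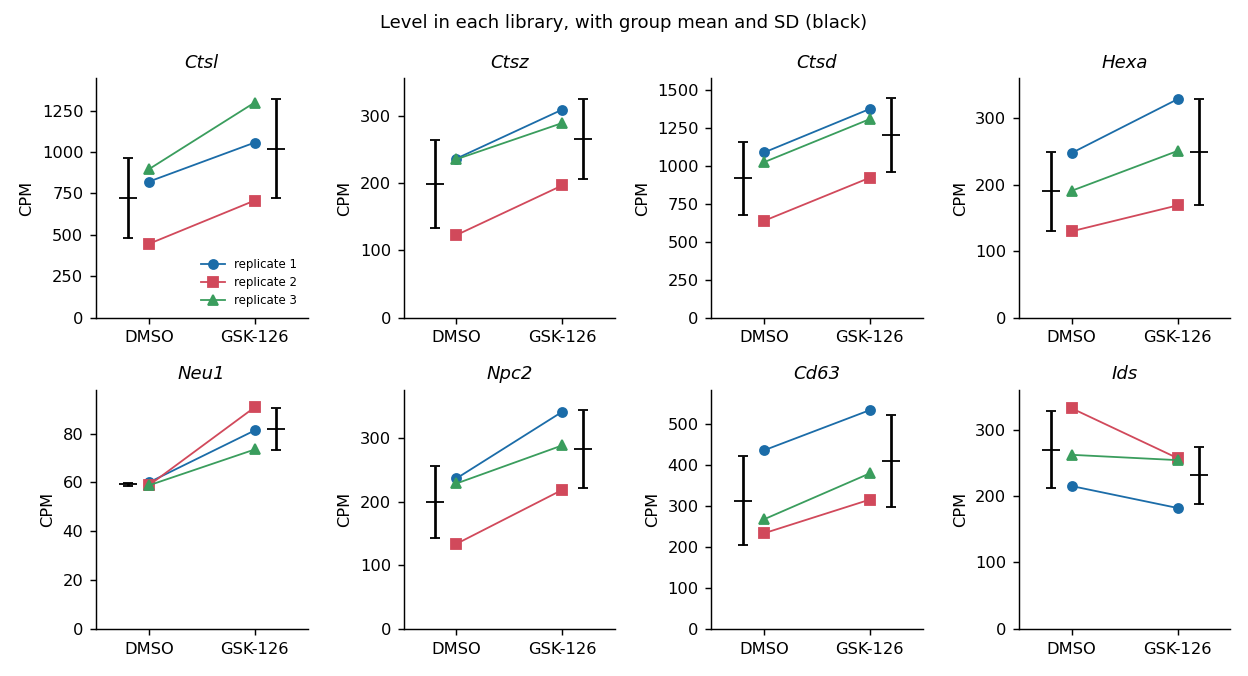
CPM of 8 lysosomal genes in each library, with lines joining libraries of the same replicate number and black bars for the group mean ± SD (n = 3). For all but Neu1 and Ids, replicate 2 is the lowest library of both groups, and each line slopes up except for Ids, which goes from 215, 332 and 262 CPM to 182, 257 and 254 CPM.

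Lipid hydrolases include acid ceramidase, acid sphingomyelinase, acid lipase, arylsulfatase A, which acts on sulfatide, and palmitoyl-protein thioesterase, which strips fatty acids from proteins. Of the 5, 1 rose and 0 were lower at an unadjusted p under 0.05. Acid ceramidase (Asah1) was at 144, 113 and 121 CPM with DMSO and 190, 122 and 147 CPM with GSK-126. It rose by 0.27 on the log2 scale (SE 0.080, adjusted p = 0.043), lost without pair 1 or pair 3 and not called by DESeq2 with the block (adjusted p = 0.0736). Ppt1, within the spread of Asah1 in level per kilobase of exon (38.4 ± 4.77 and 37.2 ± 4.64 CPM per kilobase with DMSO, SD, n = 3), had 160, 126 and 138 CPM and then 152, 120 and 138 CPM. The log2 fold change of Ppt1 was -0.047 (95% interval -0.20 to 0.11), with a sign that turned when DMSO replicate 1 or GSK-126 replicate 2 was left out, and that of the sphingomyelinase Smpd1 was -0.14 (-0.31 to 0.034). Lipa and Arsa had 0.13 and 0.25, both without passing and both with signs that turned when single libraries were left out.

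Activators bring lipids within reach of the soluble enzymes, and this group also holds other soluble cofactors. Of the 4, 2 rose. Npc2 (ENSMUSG00000021242.9, chr12:84754562-84773152), a small protein that carries cholesterol inside the lysosome, was at 237, 134 and 229 CPM with DMSO and 342, 219 and 289 CPM with GSK-126. It held the highest single ratio of the called genes, 0.71 in pair 2, and it rose by 0.52 on the log2 scale (SE 0.079, adjusted p = 0.00021). Progranulin (Grn), a secreted and lysosomal glycoprotein, had 463, 303 and 498 CPM and then 597, 365 and 536 CPM. It rose by 0.25 on the log2 scale (SE 0.072, adjusted p = 0.0374), and it kept the call without pair 3 only.

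Prosaposin (Psap), the precursor of 4 saposins that activate sphingolipid hydrolases, was at 1867, 1649 and 1900 CPM with DMSO and 2068, 1705 and 2076 CPM with GSK-126. The log2 fold change of Psap was 0.11 (95% interval -0.029 to 0.24), and the GM2 activator Gm2a, which serves beta-hexosaminidase, had 0.089 (-0.11 to 0.29), with a sign that turned without pair 2. Neither passed.

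Membrane proteins of the lysosome line and shield its limiting membrane or carry ions and lipids across it. Of the 7, 2 rose, and the other 5 did not pass. Cd63 (ENSMUSG00000025351.14, chr10:128900989-128912822), a tetraspanin of late endosomes and lysosomes, was at 435, 233 and 267 CPM with DMSO and 533, 315 and 379 CPM with GSK-126. Replicate 1 was the highest of both groups, and it rose by 0.41 on the log2 scale (SE 0.072, adjusted p = 0.00088). Lamp2, which shields the membrane and takes part in autophagy, had 412, 259 and 344 CPM and then 501, 271 and 446 CPM. With a ratio of only 0.066 in pair 2, it rose by 0.24 on the log2 scale (SE 0.074, adjusted p = 0.049), and the call was lost without pair 1 or pair 3.

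Lamp1 was at 863, 592 and 724 CPM with DMSO and 1026, 683 and 808 CPM with GSK-126, a log2 fold change of 0.20 (95% interval 0.065 to 0.34) that did not pass in edgeR's test (adjusted p = 0.0649) and did in DESeq2's with the block (adjusted p = 0.0345). Exons of Lamp1 share 249 bp with Grtp1 on the opposite strand, which rose from 274, 191 and 208 CPM to 327, 222 and 288 CPM (log2 fold change 0.32, adjusted p = 0.00983). Scarb2, the receptor that carries glucocerebrosidase to the lysosome, had 0.055 (-0.093 to 0.20), and the calcium channel Mcoln1 had 0.087 (-0.093 to 0.27). For Npc1, the membrane partner of Npc2 in cholesterol export, the value was 0.035 (-0.14 to 0.21), and for Cln3 it was -0.035 (-0.34 to 0.27), a sign that turned with upper-quartile or total-count scaling, while those of Npc1 and Mcoln1 turned without single libraries. The difference between Npc2 and Npc1 was not tested.

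Relative to exon length, levels covered a wide range. Psap was highest with DMSO, at 658 ± 49.6 CPM per kilobase (SD, n = 3), followed by Ctsd (389 ± 103), Ctsb (325 ± 61.2) and Lamp1 (272 ± 50.9). From Ctsd to Lamp1, neighbours in this order differed by less than their spread. Ctsz, Lgmn, Grn and Ctsl formed the next tier, between 111 and 138 CPM per kilobase, where neighbours also differed by less than their spread. Lowest were Cln3 at 3.52 ± 0.652, Manba at 3.44 ± 1.26 and Idua at 3.02 ± 0.131 CPM per kilobase. Of the 8 genes with the highest level, 6 rose, and Psap and Lamp1 did not pass. Among the 17 called genes with a promoter entry, 7 held CACGTG, as did 7 of the 21 others.

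Other lysosomal genes were taken from 4 lists of 86 genes, of which 77 were tested. In these lists 0 genes passed without the block in edgeR or DESeq2. At an unadjusted p under 0.05 in edgeR's test were 5 of them, beside 665 of all 16729 genes tested. With the block, 14 (18.2%) were called higher and 2 lower, beside 3.35% and 5.09% of all genes tested. The counts became 6, 11 and 10 higher and 2, 2 and 2 lower without pairs 1, 2 and 3. The median log2 fold change of the 77 was 0.17 without the block.

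Of 31 other lysosomal enzymes, 9 rose and 0 were called lower, with 1 lower at an unadjusted p under 0.05. Without pairs 1, 2 and 3 the 9 became 4, 7 and 7, and DESeq2 with the block called 7. Among them, the carboxypeptidase Scpep1 rose from 109, 82.5 and 91.5 CPM to 146, 108 and 116 CPM (0.38, adjusted p = 0.00339). Pld3, a lysosomal nuclease, had 139, 111 and 156 CPM and then 198, 132 and 183 CPM (0.33, adjusted p = 0.0109), and Glmp, a membrane glycoprotein despite its place in this list, 111, 64.2 and 91.3 CPM and then 144, 85.0 and 121 CPM (0.40, adjusted p = 0.00271). Each of these 3 genes was higher in every pair, with log2 fold changes inside the range of the 20 called genes.

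Of 28 other membrane proteins and transporters, 3 rose and 1 fell, counts that were 1, 3 and 1 higher and 1, 1 and 1 lower without pairs 1, 2 and 3. Mfsd1 was at 140, 83.7 and 97.0 CPM with DMSO and 184, 107 and 130 CPM with GSK-126 (log2 fold change 0.39, adjusted p = 0.00245). Laptm5, a lysosomal protein of blood-derived cells, rose by 0.28 (adjusted p = 0.0486), and Ostm1, the partner of the lysosomal chloride exchanger, by 0.30 (adjusted p = 0.0487). DESeq2 with the block called neither of them (adjusted p = 0.0878 and 0.122). Abca2, a lipid transporter of late endosomes and lysosomes, fell from 257, 338 and 284 CPM to 205, 257 and 233 CPM (-0.34, adjusted p = 0.00424), with groups that did not overlap. Mfsd8 was listed at 0 in all 6 libraries.

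Of 15 genes for enzyme sorting and its transcriptional control, 1 rose and 1 fell. Without pairs 1, 2 and 3, 0 genes of this list were called higher in each case and 1 lower, and DESeq2 with the block called 0 higher and 1 lower. The adaptor Gga2, which packs mannose 6-phosphate receptors into vesicles, was at 58.9, 49.5 and 56.9 CPM with DMSO and 69.7, 66.0 and 71.9 CPM with GSK-126 (log2 fold change 0.33, adjusted p = 0.0297, and 0.0824 from DESeq2 with the block). Sorl1, a neuronal sorting receptor of the endosome, fell from 179, 263 and 216 CPM to 144, 159 and 144 CPM (-0.54, SE 0.082, adjusted p = 0.00022). Tfeb, Tfe3 and Mitf, the factors that bind CLEAR letters, did not pass, at 0.30 (SE 0.19), 0.13 (SE 0.094) and 0.15 (SE 0.22). Nor did the mannose 6-phosphate receptors M6pr and Igf2r, at 0.18 and 0.13, or the tagging enzyme Gnptab, at -0.0030. Of 3 tested cathepsin inhibitors, 1 rose, cystatin B (Cstb), from 42.2, 23.6 and 55.4 CPM to 64.5, 38.1 and 79.3 CPM (0.60, SE 0.10, adjusted p = 0.00056).

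Markers of several cell types also differed between the groups. For comparison with the counts below, 3.35% of all genes tested were called higher and 5.09% lower with the block. The summed levels of microglia and macrophage, oligodendrocyte lineage, and fibroblast and vascular markers were higher with GSK-126 in each pair, like that of the lysosomal genes. Fewer cells of a type and less RNA per cell cannot be told apart in bulk RNA. Of 17 tested markers of microglia and macrophages, which are rich in lysosomes, 6 rose (C1qa, C1qb, C1qc, Tyrobp, Mpeg1 and Lyz2), and all 17 had log2 fold changes above 0, with a median of 0.23 (0.26 without the block). Without pairs 1, 2 and 3 these counts were 4, 3 and 7. The complement gene C1qa, for example, was at 181, 68.4 and 110 CPM with DMSO and 215, 109 and 162 CPM with GSK-126 (log2 fold change 0.48, adjusted p = 0.00096). Csf1r and Cx3cr1, receptors that define microglia, did not pass, at 0.14 (SE 0.090) and 0.12 (SE 0.13), and Trem2 was listed at 0 in all 6 libraries. The microglia and macrophage markers summed to 1822, 1145 and 2208 CPM with DMSO and 2209, 1515 and 2687 CPM with GSK-126, or log2 ratios of 0.28, 0.40 and 0.28 in pairs 1, 2 and 3. The 43 lysosomal genes summed to 12411, 8708 and 11759 CPM and then 15003, 10316 and 14061 CPM, ratios of 0.27, 0.24 and 0.26. Both sums were lowest in replicate 2, and the part of these cells in the result was not tested.

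Astroglia markers summed to 7567, 2586 and 4291 CPM with DMSO and 7944, 2411 and 4228 CPM with GSK-126. They were thus also lowest in replicate 2, but their sum was lower with GSK-126 in pairs 2 and 3. Of these 10, 2 rose, S100b and Gdf10 (0.56 and 0.72), and 0 were called lower, with 2 lower at an unadjusted p under 0.05. Without pairs 1, 2 and 3 these counts were 1, 2 and 2 higher and 1, 0 and 1 lower, and DESeq2 with the block did not call Gdf10 (adjusted p = 0.0628). In all 3 pairs, 5 of the 10 astroglia markers were higher and 4 lower, beside 19.5% and 22.7% of all genes tested. The 4 lower ones were Aqp4, Slc1a3, Slc1a2 and Gja1. Of 11 oligodendrocyte lineage markers, 1 rose, the myelin gene Mbp (0.28, adjusted p = 0.0408), a count of 1, 0 and 1 without pairs 1, 2 and 3, and DESeq2 with the block called 0. Log2 fold changes were above 0 for 7 of the 11 and below 0 for 4, with a median of 0.064 (0.044 without the block). Their sum was 914, 525 and 739 CPM with DMSO and 922, 612 and 821 CPM with GSK-126, higher in each pair (log2 ratios of 0.013, 0.22 and 0.15). Of 8 fibroblast and vascular markers, 3 rose, Acta2 (0.43), Pdgfrb (0.36) and Col1a2 (0.22, adjusted p = 0.0498), a count of 2 without any 1 pair, and all 8 had log2 fold changes above 0. Their sum was 7479, 8066 and 10028 CPM and then 9244, 8560 and 10877 CPM, also higher in each pair (0.31, 0.086 and 0.12).

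Granule neuron markers went the other way. Of 12, 7 fell (Neurod1, Zic1, Gabra6, Rbfox3, Map2, Etv1 and Grin2c) and 1, the tubulin Tubb3, rose. Without pairs 1, 2 and 3 these counts were 7, 6 and 6 lower and 1, 0 and 1 higher. DESeq2 with the block called 6 lower and 0 higher, and did not call Grin2c (adjusted p = 0.0948) or Tubb3 (adjusted p = 0.381). The 12 markers summed to 3850, 6089 and 4488 CPM with DMSO and 3177, 4829 and 3512 CPM with GSK-126, highest in replicate 2, where the lysosomal sum was lowest. Of 8 Purkinje cell and interneuron markers, 3 fell, the GABA genes Gad1 (-0.32), Gad2 (-0.52) and Slc32a1 (-0.72). Without pairs 1, 2 and 3 this count was 1, 2 and 1, with 1 of the list called higher without pair 3. DESeq2 with the block did not call Gad2 (adjusted p = 0.103). The others did not pass and differed in direction. Pcp2 and Pax2 were at -1.10 and -0.10, and Calb1, Pvalb and Car8 at 0.45, 0.51 and 0.30. The 8 markers summed to 231, 211 and 244 CPM with DMSO and 199, 175 and 162 CPM with GSK-126, lower in each pair. Gad1 and Slc32a1 were the highest of the list, with means of 116 and 59.4 CPM with DMSO. In the test without the block, edgeR and DESeq2 called 0 genes of these 6 marker lists. An unadjusted p under 0.05 in edgeR's test was found for 3 granule neuron and 4 Purkinje cell and interneuron markers. Of all 16729 genes tested, 665 had one. The part of these cell types in the lysosomal difference was not tested.

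**Figure D4:**
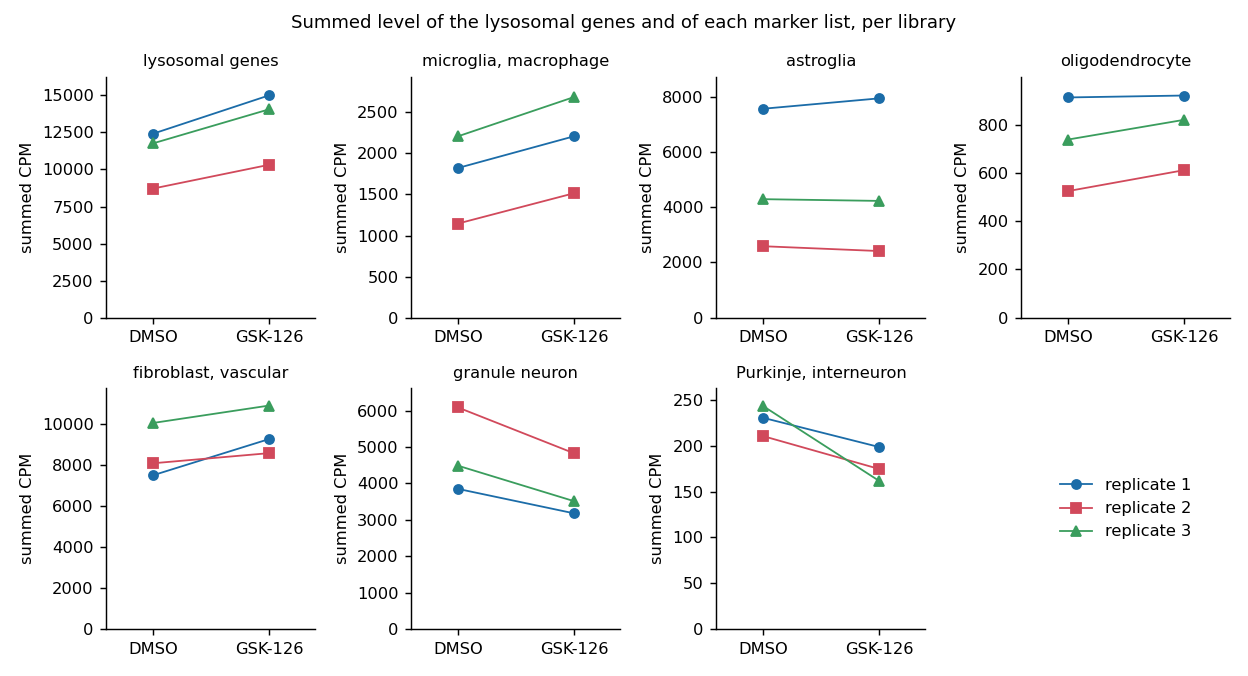
Summed CPM of the 43 lysosomal genes and of 6 marker lists in each library, with lines joining libraries of the same replicate number. The sums of the lysosomal genes, from 8708 to 15003 CPM, and of microglia and macrophage, oligodendrocyte lineage, and fibroblast and vascular markers go up in each pair. Those of granule neuron markers and of Purkinje cell and interneuron markers go down in each pair, and that of astroglia markers differs in direction between pairs. In both groups, replicate 2 has the lowest sum of lysosomal genes and of microglia and macrophage, astroglia and oligodendrocyte lineage markers, and the highest sum of granule neuron markers.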

How the data were processed

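RNA of 6 CGN cultures was enriched for poly-A and sequenced as paired reads. The authors trimmed reads with Trimmomatic 0.38, aligned them to GRCm38 with STAR 2.7.2b and deposited raw counts on exons per gene (HTSeq), without normalization. The annotation release and the strand setting are not given in the sources used here. The 55341 symbols all match GENCODE M21, which gave coordinates and exon lengths. Lines that name no gene held 58.7% to 60.7% of the listed reads and were left out.

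Counts were tested in R 4.3.3 with edgeR 4.0.16 (TMM, filterByExpr, quasi-likelihood test, Benjamini-Hochberg adjustment over 16729 genes, adjusted p under 0.05), without a block and with the replicate number as a block, and with DESeq2 1.42.0. The biological coefficient of variation was 24% without and 9.74% with the block. The replicate numbers come from the sample titles, and a replicate is a culture from pooled litters. Deviations from the group means correlated across genes at 0.561, 0.634 and 0.487 between libraries of the same number and at 0.00638 or less otherwise. The numbers were therefore used to pair the libraries. Deviations cancel out within a group, so the low values between unlike numbers are not separate evidence. The sources used here do not state that libraries of the same number share a litter pool. No library was a copy of another. The fits were tested on simulated data. Intervals on fold changes are 95% intervals of the fit.

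The genes, the lists and the rules were chosen with earlier results of these data known, and no result is independent support for a pattern already seen in them. Values in every library are given for genes called in either fit, the 2 genes of each role with the highest level per kilobase, and at most 4 called genes of each other lysosomal list. The values of 1 gene that this rule would name are not reported here. The alternatives tried are named with their effect at the end.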

Additional observations from a re-analysis of the deposited data

How the results depend on the processing

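Without the block, 0 of the 43 genes and 0 of the other lysosomal genes were called under upper-quartile or total-count scaling, no filter, a minimum of 10 counts in each library, DESeq2, any library left out or an adjusted p under 0.01. With the replicate block, which compares libraries within the pairs, 20 lysosomal genes were called higher (18 with DESeq2, and 13, 16 and 15 without pairs 1, 2 and 3), and 1 was called lower without pair 3. Over all genes, edgeR called 561 higher with the block, and 417, 337 and 558 without pairs 1, 2 and 3. Of the other lysosomal genes, 16 were called (11 with DESeq2; 8, 13 and 12 without pairs 1, 2 and 3). The median log2 fold change of the 43 genes ranged from 0.097 to 0.43 with single libraries left out, which breaks a pair. Over 16 alternatives, 655 of 688 values kept their direction and 30 of the 43 genes kept it in all of them. The cause of the changes was not tested.

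Signs turned for 13 genes, whose values with single libraries left out ranged as follows. They lay between -0.067 and 0.57 for Arsa, between -0.091 and 0.39 for Arsb, between -0.27 and 0.15 for Cln3, between -0.052 and 1.01 for Ctsk, between -0.28 and 0.21 for Ctso and between -0.062 and 0.40 for Ctss. The range was -0.12 to 0.0017 for Glb1, -0.12 to 0.30 for Gm2a, -0.092 to 0.094 for Idua, -0.076 to 0.42 for Lipa, -0.014 to 0.19 for Mcoln1, -0.12 to 0.18 for Npc1 and -0.12 to 0.069 for Ppt1. Apart from these, Idua turned to 0.015 with upper-quartile and with total-count scaling and to 0.13 without pair 3, Cln3 to 0.017, 0.013 and 0.068 in the same 3 settings, Glb1 to 0.0048 without pair 3 and Gm2a to -0.017 without pair 2. Both scalings put the median of all genes at 0.027. Depth limits Idua most, with 777 counts in all.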
